A study of Mus musculus with 13 samples.

Results

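CDK inhibitors, Btg proteins and pocket proteins are 3 groups of antiproliferative genes, and 10 of them are described here in mouse blastocysts in and out of diapause, the reversible arrest of the embryo before implantation. They are the CDK inhibitors Cdkn1a, Cdkn1b, Cdkn2c and Cdkn2d, the Btg genes Btg1, Btg2 and Btg3, and the pocket proteins Rb1, Rbl1 and Rbl2. They were taken by gene name, with earlier results of these data known, as 10 of the 31528 genes in the table, and all 10 were among the 21808 genes that were tested. RNA of whole blastocysts from B6D2F1 mice, a mixed C57BL/6 and DBA2J background, was sequenced in 13 libraries. The groups of day 5.5 were blastocysts after ovariectomy (OVX, n = 2), the classical hormonal induction of diapause, after starvation (n = 2), after culture in KSOM, a simple embryo medium, lacking protein and carbohydrate components (depleted KSOM, n = 2), after culture in KSOM with less glucose, lactate, arginine, lysine, leucine and isoleucine (reduced KSOM, n = 3), and after ovariectomy and targeting of Nprl2 and Tsc2 by guide RNAs (targeted OVX, n = 2). The last of these is given as a knockout of both genes, which restrain the growth kinase complex mTORC1, and the other groups as wild type. Blastocysts of day 4.5 from a normal diet (E4.5, n = 2) were the common reference, so the 5 comparisons with E4.5 share the same 2 libraries. Age cannot be told apart from treatment in those comparisons, and no group is labelled as cultured in complete KSOM. The labels do not say that replicates came from separate mothers or cultures, so the spread behind each p-value is that between these samples and may be technical.

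As background, a cell commits to DNA replication when cyclin-dependent kinases (CDKs) phosphorylate the pocket proteins, which then release the E2F transcription factors that they hold on the promoters of replication genes. Cip/Kip inhibitors such as Cdkn1a and Cdkn1b bind cyclin–CDK complexes, Ink4 inhibitors such as Cdkn2c and Cdkn2d bind CDK4 and CDK6, and the Btg proteins bridge the Ccr4–Not deadenylase, which shortens poly(A) tails, to mRNAs. In diapause the blastocyst stays alive with little or no cell division, and Cdkn1a and Btg genes have been studied as marks of that arrest. RNA levels say nothing here of protein, phosphorylation or kinase activity.

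Btg1 is the member whose level differed most among these groups. Its promoter is shown beside that of Btg2, its close relative, whose level passed no test in the main edgeR fit. Both are RefSeq windows of the GRCm38.p6 build, 250 bases before and 50 after the annotated start. Capitals mark the FOXO motif TGTTTAC, the cyclic AMP response element TGACGTCA and its core TGACG, which reads as CGTCA from the opposite strand. All were searched on both strands.
Btg1 (chr10:96616751-96617050, plus strand): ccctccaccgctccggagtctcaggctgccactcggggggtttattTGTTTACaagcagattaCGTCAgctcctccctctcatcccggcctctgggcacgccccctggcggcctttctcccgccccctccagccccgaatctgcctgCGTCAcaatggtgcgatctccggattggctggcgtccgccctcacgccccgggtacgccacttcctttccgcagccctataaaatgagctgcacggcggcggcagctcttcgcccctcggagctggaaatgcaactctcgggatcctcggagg
Btg2 (chr1:134079106-134079405, minus strand): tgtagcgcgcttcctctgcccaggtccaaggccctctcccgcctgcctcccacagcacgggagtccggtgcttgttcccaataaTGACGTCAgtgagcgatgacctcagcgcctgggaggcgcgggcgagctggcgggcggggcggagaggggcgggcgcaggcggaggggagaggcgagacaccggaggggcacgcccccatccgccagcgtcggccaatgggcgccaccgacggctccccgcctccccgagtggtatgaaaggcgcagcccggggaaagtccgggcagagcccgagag
The Btg1 window held TGTTTAC at bases 47 to 53 and CGTCA at bases 64 to 68 and 148 to 152, counted from its 5′ end. The Btg2 window held the full TGACGTCA at bases 85 to 92, which contains the core on both strands. All 10 members matched the promoter table, with 12 windows in all. TGTTTAC was in 1 of the 12 windows and in 3.65% of all 32851 promoters, TGACGTCA in 1 window and 1.79% of promoters, and TGACG in 4 windows and 20.8% of promoters. The motifs were chosen with these promoters in view, and a match is a run of letters, not a measured binding site.

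Total counts per library ran from 40678386 to 72125687. Scaling factors (TMM, trimmed mean of M values) ran from 0.671 to 1.414, with the highest in E4.5, so a ratio of FPKM (the authors' level per length and depth) need not equal a fold change, which is on the scale of TMM-scaled counts. The common biological coefficient of variation was 0.896, a wide spread for groups of 2 or 3 libraries. Trophectoderm markers summed to between 3261 and 20013 CPM (counts scaled to the library's depth) in every library, and all 6 trophectoderm, 6 epiblast and 6 primitive endoderm markers were detected in every group. Muscle, neutrophil and macrophage markers, of cells outside the embryo, were highest in all 3 reduced KSOM libraries and in OVX replicate 1. The 12 skeletal muscle markers summed to 1059 to 1461 CPM in reduced KSOM, 136 and 1443 CPM in the OVX libraries and 171 to 319 CPM in E4.5. All 12 were detected in every reduced KSOM library and in OVX replicate 1. Of the 12, 2 had 0 counts in OVX replicate 2 and 8 or 9 had 0 counts in the E4.5 libraries, so those sums come from fewer genes. The 10 neutrophil markers summed to 1242 to 1726 CPM in reduced KSOM, 138 and 593 CPM in OVX and at most 1.36 CPM in E4.5. In targeted OVX they summed to 17.0 and 35.3 CPM. The 7 macrophage markers summed to 54.3 and 60.5 CPM in targeted OVX and 2.13 and 3.68 CPM in E4.5. The part of these cells in the levels of targeted OVX was not tested. The guides' targets were still detected: Nprl2 had 4.77 and 11.27 FPKM in targeted OVX, against 11.62 and 18.62 FPKM in OVX, and Tsc2 had 1.05 and 0.68 FPKM in targeted OVX, against 1.48 and 1.5 FPKM in OVX. Guide-made deletions need not lower the mRNA. The median member differed 2.79-fold between the 2 starvation libraries, but 1.39-fold to 1.57-fold between the paired libraries of the other groups of 2.

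**Figure D1:**
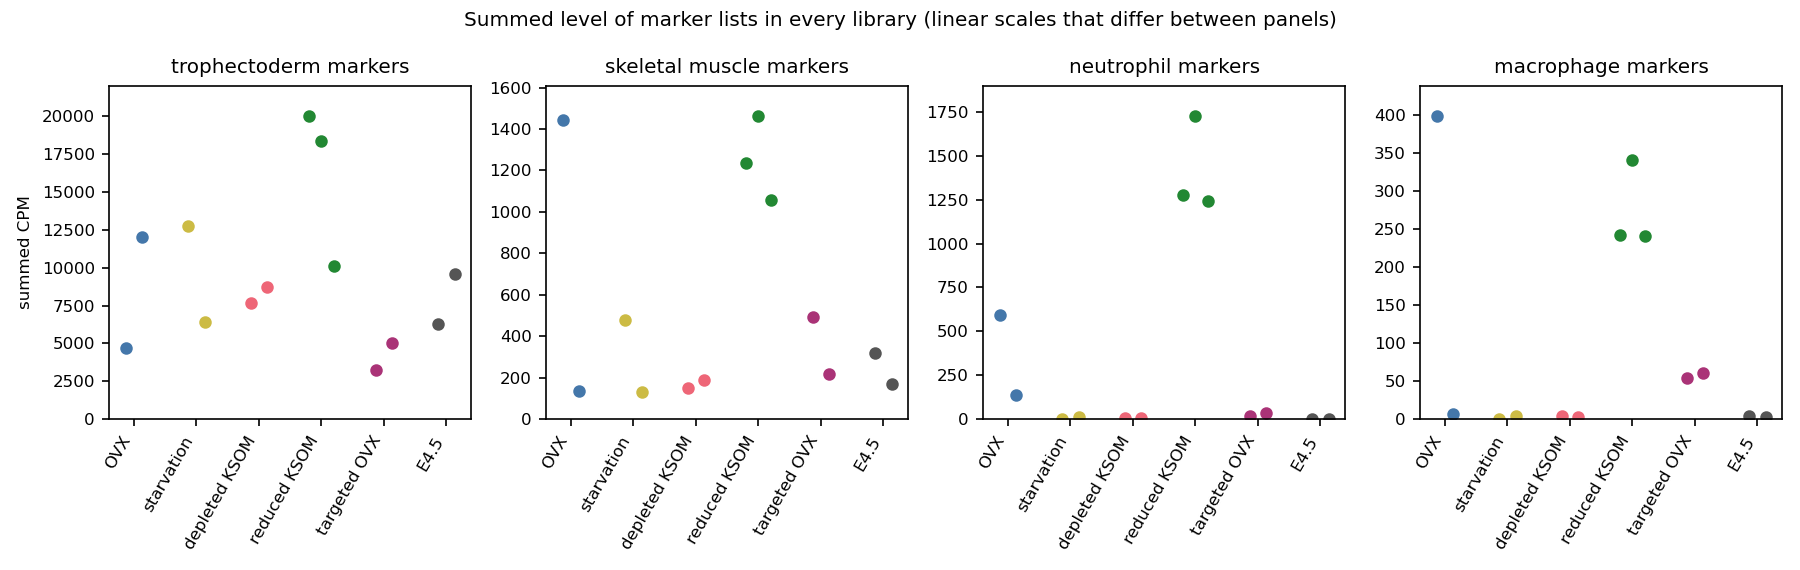
Summed CPM of trophectoderm, skeletal muscle, neutrophil and macrophage markers in each of the 13 libraries, by group, on linear axes that differ between panels. Muscle, neutrophil and macrophage sums are highest in the 3 reduced KSOM libraries and OVX replicate 1. Neutrophil markers reach at most 35.3 CPM in targeted OVX, 10.4 CPM in starvation, 5.46 CPM in depleted KSOM and 1.36 CPM in E4.5.

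**Figure D2:**
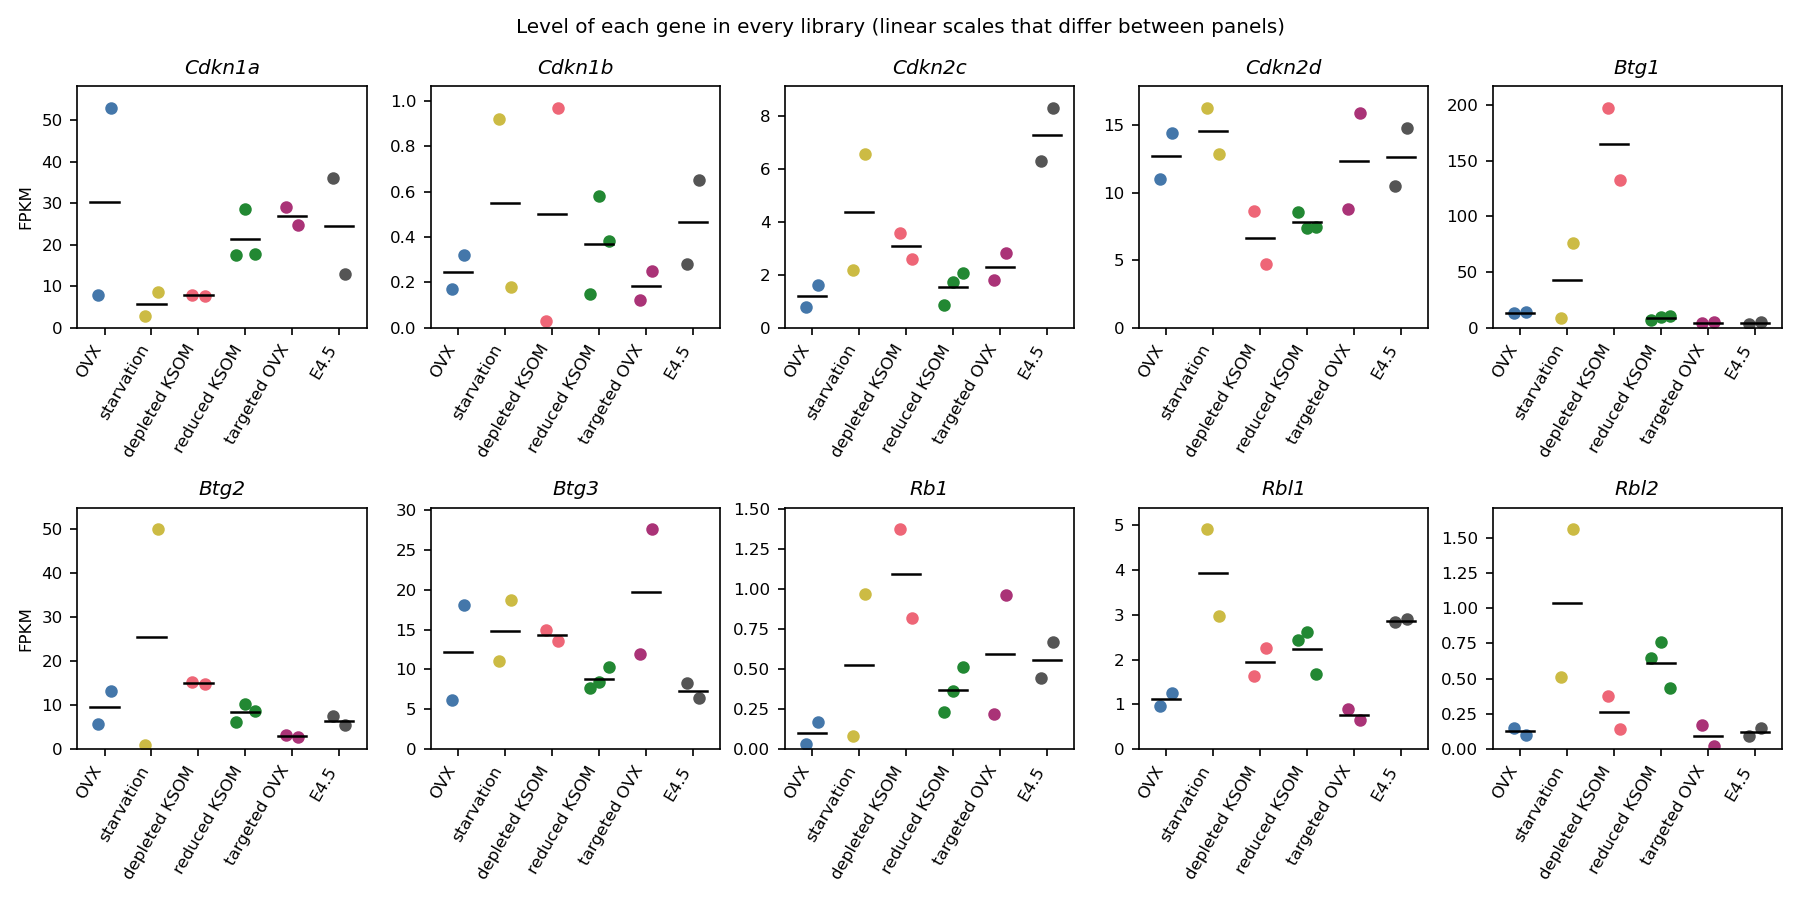
FPKM of the 10 members in each library, by group, on linear axes that differ between genes, with a line at each group's mean. Btg1 stands at 197.49 and 132.29 FPKM in depleted KSOM against 3.53 and 4.91 FPKM in E4.5, and the starvation libraries lie far apart for Btg1 and Btg2.

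A gene passed where its adjusted p was under 0.05 in the edgeR quasi-likelihood test. Counted over the 10 members, against E4.5 1 rose in depleted KSOM, where 5.51% of all genes tested passed, none passed in reduced KSOM (1.13% of all genes), 1 rose in starvation (2.21%), none passed in OVX (2.04%) and 1 rose in targeted OVX (2.66%). At an unadjusted p under 0.05 there were 2 of 10 members in depleted KSOM, beside 20.9% of all genes, 4 in reduced KSOM (15.2%), 4 in starvation (16.8%), 3 in OVX (15.8%) and 2 in targeted OVX (17.6%). Set against OVX, none passed in depleted KSOM (0.679% of all genes), reduced KSOM (0.202%), starvation (0.225%) or targeted OVX (0.0367%). There, 4 members had an unadjusted p under 0.05 in depleted KSOM (15.9% of all genes), 1 in reduced KSOM (9.48%), 4 in starvation (15.0%) and 3 in targeted OVX (10.9%). In reduced against depleted KSOM 1 member fell (5.79% of all genes). Against E4.5, DESeq2 called 2 members in OVX (9.25% of all genes) and 3 in reduced KSOM (8.16%), and limma on FPKM called 1 in OVX (8.41%) and 1 in reduced KSOM (10.3%). The median log2 fold change of the members was 0.84 in depleted KSOM, 0.38 in reduced KSOM, 0.62 in starvation, 0.65 in OVX and 0.57 in targeted OVX, beside −0.09, 0.15, 0, 0 and −0.16 for all genes tested. With library totals as the scaling the median of all genes moved to −0.41, −0.50, −0.17, −0.53 and −0.92 and that of the members to 0.50, −0.29, 0.33, −0.00388 and −0.21, so the members' medians turn negative in OVX, reduced KSOM and targeted OVX under that scaling.

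Btg1 and Btg3, both of the Btg family, were the only members that passed a pairwise comparison. Btg1, an antiproliferative partner of the deadenylase (ENSMUSG00000036478, GRCm38 chromosome 10, 96617006 to 96622809, plus strand), rose 47.6-fold in depleted KSOM over E4.5. Its level was 197.49 and 132.29 FPKM in depleted KSOM, 8.83 and 76.31 FPKM in starvation, 13.06 and 13.73 FPKM in OVX, 6.98, 9.02 and 10.35 FPKM in reduced KSOM, 3.61 and 5.28 FPKM in targeted OVX, and 3.53 and 4.91 FPKM in E4.5. Every library of the 4 wild-type groups of day 5.5 lay above both E4.5 libraries, and the targeted OVX libraries overlapped them on this scale. From the highest level to the lowest the groups ran depleted KSOM, starvation, OVX, reduced KSOM, targeted OVX and E4.5, and of the 5 neighbouring pairs only starvation with OVX and targeted OVX with E4.5 overlapped.

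On the TMM scale Btg1 averaged 860.1 ± 218 CPM in depleted KSOM and 18.1 ± 3.46 CPM in E4.5 (SD, n = 2 each), a log2 fold change of 5.57 ± 0.78 (SE, 95% confidence interval 3.88 to 7.27, adjusted p = 0.00289, edgeR quasi-likelihood test with Benjamini-Hochberg adjustment). It passed the test in all 23 alternatives, from 4.97 to 5.82. In starvation Btg1 averaged 206 ± 226 CPM, 11.4-fold above E4.5 (log2 fold change 3.51 ± 0.71, adjusted p = 0.0258). This call rested on single libraries: without starvation replicate 2 the log2 fold change was 1.37 (adjusted p = 0.117), without starvation replicate 1 it was 4.30 (adjusted p = 0.000151), and without E4.5 replicate 1 or 2 it was 3.33 (adjusted p = 0.126) and 3.72 (adjusted p = 0.0703). Btg1 was 5.05-fold higher in OVX (2.34 ± 0.68, adjusted p = 0.101) and 3.30-fold higher in reduced KSOM (1.72 ± 0.63, adjusted p = 0.218) than in E4.5, and neither difference passed the test, although DESeq2 called both. In targeted OVX the difference from E4.5 was 0.80 ± 0.65 (interval −0.61 to 2.20). Btg1 was also the member that passed the test of any difference among the 6 groups (adjusted p = 0.00282), which 12.3% of all genes tested passed.

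Blood cells are a known site of high Btg1 expression, so their markers stand beside it. In depleted KSOM the neutrophil markers summed to 3.68 and 5.46 CPM, against 0.594 and 1.36 CPM in E4.5, the 7 macrophage markers to 2.42 and 3.38 CPM, against 2.13 and 3.68 CPM in E4.5, and the 6 lymphocyte markers to 0.511 and 0.624 CPM, against 6.08 and 9.65 CPM in E4.5. The 6 erythroid markers summed to 379 CPM in depleted KSOM replicate 1 and 7.12 CPM in replicate 2, against 5.77 and 17.3 CPM in E4.5. Btg1 had 197.49 FPKM in depleted KSOM replicate 1 and 132.29 FPKM in replicate 2, and without replicate 1 its log2 fold change over E4.5 was 5.29. The part of blood cells in the Btg1 level of depleted KSOM was not tested. In reduced KSOM the erythroid markers summed to 33.8 to 354 CPM, in OVX to 8.03 and 83.7 CPM, and in starvation to 0.109 and 1.19 CPM. In starvation the neutrophil markers summed to 1.56 and 10.4 CPM and the macrophage markers to 0 and 3.91 CPM. The macrophage markers summed to 241 to 341 CPM in reduced KSOM, 399 CPM in OVX replicate 1 and 6.11 CPM in OVX replicate 2, beside the neutrophil sums given above, and the part of these cells in the Btg1 level of both groups was not tested. Mitochondrially encoded transcripts took 12.2% and 13.2% of counts in depleted KSOM and 2.05% to 7.40% elsewhere, and the part of this in the Btg1 level was not tested either. In whole blastocysts, fewer cells of a type and less RNA per cell cannot be told apart. The processed pseudogene Gm14519, 98.7% identical to Btg1 over 312 bases, had 5 and 8 counts in depleted KSOM and 0 in E4.5, against 1086 to 82285 counts of Btg1 over the 13 libraries.

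Btg2 (ENSMUSG00000020423, chromosome 1, 134075170 to 134079120, minus strand), a p53-induced and immediate-early member of the family, passed in no comparison of the main edgeR fit. It had 15.29 and 14.71 FPKM in depleted KSOM, 0.86 and 49.92 FPKM in starvation, 5.73 and 13.2 FPKM in OVX, 6.13, 10.2 and 8.66 FPKM in reduced KSOM, 3.09 and 2.78 FPKM in targeted OVX, and 7.4 and 5.51 FPKM in E4.5. The 2 depleted KSOM libraries were alike and above E4.5, while the 2 starvation libraries held the lowest and the highest level of all 13. Depleted KSOM was 2.82-fold above E4.5 (interval −0.69 to 3.68 on the log2 scale, adjusted p = 0.396), and 4 of 23 alternatives called it. In the test of any difference among the 6 groups the adjusted p of Btg2 was 0.357, and 3 of 22 alternatives took it under 0.05. The difference between depleted KSOM and E4.5 was positive in all 23 alternatives. In starvation the log2 fold change over E4.5 was 2.13 ± 1.03 (adjusted p = 0.319), and its sign turned on the library kept. Without starvation replicate 2 it was −2.60, and without replicate 1 it was 3.06. Starvation against OVX gave 1.06 (interval −1.10 to 3.23), with −3.68 and 2.04 in the same order.

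Btg3 (ENSMUSG00000022863, chromosome 16, 78332637 to 78376810, minus strand), a more distant member also called ANA, had the highest level in targeted OVX. Its level was 11.91 and 27.59 FPKM in targeted OVX, 11.07 and 18.67 FPKM in starvation, 14.96 and 13.59 FPKM in depleted KSOM, 6.18 and 18.11 FPKM in OVX, 7.62, 8.39 and 10.32 FPKM in reduced KSOM, and 8.25 and 6.4 FPKM in E4.5. All 5 neighbouring pairs in that order overlapped, and OVX and reduced KSOM also overlapped E4.5 on the FPKM scale. Targeted OVX averaged 104 ± 49.9 CPM and E4.5 24.0 ± 5.24 CPM (SD, n = 2 each), and Btg3 rose 4.34-fold there (log2 fold change 2.12 ± 0.43, adjusted p = 0.0249). It did not pass without targeted OVX replicate 2 (1.52, adjusted p = 0.146), without E4.5 replicate 1 (2.36, 0.0796) or replicate 2 (1.91, 0.202), with library totals as the scaling (1.40, adjusted p = 0.151), in a fit of only the 2 groups compared (2.07, adjusted p = 0.1102) or by limma on FPKM (1.22, adjusted p = 0.147). In the other groups Btg3 was 1.89-fold to 2.36-fold above E4.5 on the TMM scale, with unadjusted p-values of 0.0112 to 0.0344 and adjusted p-values of 0.111 to 0.289, so none passed. The difference between targeted OVX and OVX was 0.91 ± 0.42 (adjusted p = 0.450). Btg3 counts are uncertain by a small amount, since the processed pseudogene Gm7334 is identical to it over 756 bases and had 132 and 442 counts in targeted OVX and 10 to 14 in E4.5, against 1233 to 5929 counts of Btg3. Its exons also overlap Cxadr on the opposite strand over 356 bases, and the kit does not keep strand. Cxadr averaged 48.1 ± 25.2 CPM in targeted OVX and 49.99 ± 17.6 CPM in E4.5.

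Of the 10 tested genes for the other Btg and Tob proteins, the Ccr4–Not complex and the poly(A)-binding protein Pabpc1, 1 rose and none fell in depleted KSOM over E4.5. It was Cnot8, a catalytic deadenylase subunit to which Btg proteins bind. Cnot8 had 64.6 to 143.32 FPKM in depleted KSOM, against 17.8 to 19.85 FPKM in E4.5, with no overlap. It rose 6.69-fold (log2 fold change 2.74 ± 0.37, adjusted p = 0.00257) and passed in all 23 alternatives. It was also higher in depleted KSOM than in OVX (1.95, adjusted p = 0.0347), though without depleted KSOM replicate 1 this was 1.303 (adjusted p = 0.291), without OVX replicate 1 it was 1.79 (adjusted p = 0.169), and without any of the 3 reduced KSOM libraries, which only share the spread, it was 1.95 with adjusted p of 0.0697 to 0.0738. Its paralogue Cnot7 averaged 61.6 ± 21.3 CPM in depleted KSOM and 31.6 ± 9.43 CPM in E4.5 and did not pass. No gene of this list passed against E4.5 in the other 4 groups, and the list's median log2 fold change was 0.43 in depleted KSOM and −0.60 in OVX, beside −0.09 and 0 for all genes tested.

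Of the 4 CDK inhibitors among the members, none passed in any of the 10 pairwise comparisons. Cdkn1a, the p53-inducible inhibitor p21 (ENSMUSG00000023067, chromosome 17, 29090976 to 29100727, plus strand), spanned 18.6-fold between its lowest and highest library in CPM. Its level was 7.78 and 52.94 FPKM in OVX, 29.03 and 24.64 FPKM in targeted OVX, 17.6, 28.67 and 17.63 FPKM in reduced KSOM, 7.77 and 7.7 FPKM in depleted KSOM, 2.74 and 8.54 FPKM in starvation, and 35.95 and 12.93 FPKM in E4.5. On the FPKM scale all 4 libraries of starvation and depleted KSOM lay below both E4.5 libraries. There reduced KSOM and targeted OVX lay between the E4.5 libraries and OVX spanned them. On the TMM scale the E4.5 libraries had 107 and 36.4 CPM. Both targeted OVX libraries (149 and 110 CPM) and reduced KSOM replicate 2 (122 CPM) lay above both. The difference of targeted OVX from E4.5 was 0.86 ± 0.65 log2 units and did not pass (adjusted p = 0.489, edgeR test). In starvation Cdkn1a was 3.83-fold lower than in E4.5 (log2 fold change −1.94 ± 0.67, adjusted p = 0.156), and in depleted KSOM it was 2.63-fold lower (−1.39 ± 0.66, adjusted p = 0.248). In OVX the difference was 0.67 ± 0.65 and turned on the library kept, 1.36 without OVX replicate 1 and −0.67 without replicate 2. In the test of any difference among the 6 groups its adjusted p was 0.0542, and 14 of 22 alternatives took it under 0.05. Its exons overlap the unclassified transcript AC167363.2 on the opposite strand over 261 bases.

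Cdkn1b, the inhibitor p27 (ENSMUSG00000003031, chromosome 6, 134920401 to 134925513, plus strand), was scarce throughout. It had 0.17 and 0.32 FPKM in OVX, 0.92 and 0.18 FPKM in starvation, 0.03 and 0.97 FPKM in depleted KSOM, 0.15, 0.58 and 0.38 FPKM in reduced KSOM, 0.12 and 0.25 FPKM in targeted OVX, and 0.28 and 0.65 FPKM in E4.5, from 12 to 333 counts. Every neighbouring pair of groups overlapped. Its differences from E4.5 lay between −0.61 and 0.53 on the log2 scale with standard errors of 1.27 to 1.39, so a several-fold difference either way would not have been detectable.

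Cdkn2c, the Ink4 inhibitor p18 (ENSMUSG00000028551, chromosome 4, 109660876 to 109667189, minus strand), was highest in E4.5. It had 0.76 and 1.6 FPKM in OVX, 2.18 and 6.56 FPKM in starvation, 3.55 and 2.59 FPKM in depleted KSOM, 0.86, 1.7 and 2.07 FPKM in reduced KSOM, 1.78 and 2.82 FPKM in targeted OVX, and 6.28 and 8.29 FPKM in E4.5. Starvation replicate 2 was the single library of day 5.5 that reached the E4.5 range. The difference from E4.5 was −2.07 ± 0.61 in OVX (4.196-fold lower, adjusted p = 0.107) and −1.57 ± 0.53 in reduced KSOM (2.98-fold lower, adjusted p = 0.181). It was −0.54 to −0.96 in the other 3 groups. None passed, and DESeq2 and limma on FPKM called both OVX and reduced KSOM.

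Cdkn2d, the Ink4 inhibitor p19 (ENSMUSG00000096472, chromosome 9, 21288410 to 21291308, minus strand), spanned 4.24-fold between libraries in CPM, less than the 5.76-fold of Cdkn2c and the 30.4-fold of Cdkn1b. It had 11.01 and 14.43 FPKM in OVX, 16.3 and 12.88 FPKM in starvation, 8.64 and 4.68 FPKM in depleted KSOM, 8.54, 7.41 and 7.49 FPKM in reduced KSOM, 8.82 and 15.9 FPKM in targeted OVX, and 10.51 and 14.8 FPKM in E4.5. Depleted and reduced KSOM lay below E4.5 in every library on this scale, and the other groups overlapped it. This changed with the scale. In TMM-scaled CPM reduced KSOM (14.0 to 17.8 CPM) overlapped E4.5 (13.87 and 18.41 CPM), and depleted KSOM stayed below it. OVX (22.1 and 28.2 CPM), starvation (18.44 and 25.8 CPM) and targeted OVX (20.1 and 31.6 CPM) lay above E4.5 there. The Cdkn2d differences from E4.5 on the TMM scale ran from −0.64 to 0.68 log2 units, each with an interval that includes 0.

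Of the 3 remaining inhibitors, Cdkn1c, the imprinted Cip/Kip inhibitor p57, fell in depleted KSOM. It had 0 counts in both depleted KSOM libraries, against a mean of 2.28 CPM in E4.5, at least 58.9-fold lower when 3 counts per library are allowed in depleted KSOM (adjusted p = 0.0307). Without depleted KSOM replicate 1 or 2 the adjusted p was 0.123 and 0.114, without reduced KSOM replicate 1 it was 0.0508, and limma on FPKM did not call it (0.253). Cdkn2a and Cdkn2b, the senescence-linked Ink4 genes, passed in no comparison and averaged at most 0.257 and 1.61 CPM in any group. Of 6 genes that act in the turnover of CDK inhibitors, 1 fell in depleted KSOM. It was Skp2, the ubiquitin ligase subunit that targets Cdkn1b for degradation, with 1.47 CPM in depleted KSOM and 19.7 CPM in E4.5 (13.4-fold lower, log2 fold change −3.74 ± 0.61, adjusted p = 0.00601), which passed in all 23 alternatives. In reduced KSOM Skp2 averaged 3.44 CPM and also fell (−2.52 ± 0.50, adjusted p = 0.0357). That call was lost without each of the 5 libraries compared, with −2.38 (adjusted p = 0.246) and −2.64 (0.184) without E4.5 replicates 1 and 2, and −2.77 (0.105), −2.21 (0.115) and −2.64 (0.127) without reduced KSOM replicates 1, 2 and 3.

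The pocket proteins were low, and none passed a pairwise comparison. Rb1, the retinoblastoma protein (ENSMUSG00000022105, chromosome 14, 73183673 to 73325822, minus strand), had 0.03 and 0.17 FPKM in OVX, 0.08 and 0.97 FPKM in starvation, 1.37 and 0.82 FPKM in depleted KSOM, 0.23, 0.36 and 0.51 FPKM in reduced KSOM, 0.22 and 0.96 FPKM in targeted OVX, and 0.44 and 0.67 FPKM in E4.5. Depleted KSOM lay above E4.5 and OVX below it in every library. The differences were 1.26 ± 1.09 (interval −1.11 to 3.63) and −2.11 ± 1.13 (interval −4.55 to 0.34), and neither passed. Counts ran from 8 to 653 per library, and the opposite-strand genes Rcbtb2 and Lpar6 overlap its exons over 383 and 209 bases, so part of these reads may belong to them.

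Rbl1, the pocket protein p107 (ENSMUSG00000027641, chromosome 2, 157145893 to 157204534, minus strand), was the most abundant of the 3. It had 0.97 and 1.26 FPKM in OVX, 4.91 and 2.97 FPKM in starvation, 1.64 and 2.27 FPKM in depleted KSOM, 2.43, 2.61 and 1.67 FPKM in reduced KSOM, 0.89 and 0.65 FPKM in targeted OVX, and 2.83 and 2.91 FPKM in E4.5. On this scale 1 of the 5 neighbouring pairs overlapped, and starvation stood above E4.5 while the other 4 groups stood below it. In TMM-scaled CPM more groups overlapped. There reduced KSOM (13.5 to 19.3 CPM) overlapped both starvation (16.2 and 29.6 CPM) and E4.5 (13.8 and 14.3 CPM). OVX (7.35 and 9.44 CPM) also overlapped targeted OVX (4.96 and 7.79 CPM). The share of all genes with as little overlap was not computed. On the TMM scale starvation differed from E4.5 by 0.70 ± 0.45 log2 units, reduced KSOM by 0.29 ± 0.42, so above E4.5 there, and targeted OVX by −1.14 ± 0.46 (2.20-fold lower, adjusted p = 0.216). Starvation was 2.72-fold above OVX (1.45 ± 0.46, adjusted p = 0.172), which did not pass. In the test of any difference among the groups its adjusted p was 0.0833.

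Rbl2, the pocket protein p130 that is typical of resting cells (ENSMUSG00000031666, chromosome 8, 91070057 to 91123844, plus strand), was highest in starvation and reduced KSOM. It had 0.15 and 0.1 FPKM in OVX, 0.51 and 1.56 FPKM in starvation, 0.38 and 0.14 FPKM in depleted KSOM, 0.65, 0.76 and 0.43 FPKM in reduced KSOM, 0.17 and 0.02 FPKM in targeted OVX, and 0.09 and 0.15 FPKM in E4.5. All 5 libraries of starvation and reduced KSOM lay above all other 8. Against E4.5 Rbl2 was 9.59-fold higher in starvation (3.26 ± 1.12, adjusted p = 0.155) and 7.80-fold higher in reduced KSOM (2.96 ± 1.06, adjusted p = 0.211). Neither passed, and DESeq2 called both. Its counts ran from 7 to 936. On the opposite strand its exons overlap Aktip over 347 bases and the transcript Gm45464 over 426 bases. Aktip averaged 128 ± 6.34 CPM in depleted KSOM, 79.5 ± 14.5 CPM in starvation, 51.3 ± 3.57 CPM in reduced KSOM and 26.8 ± 11.7 CPM in E4.5. Gm45464 had 267 counts in starvation replicate 1, where Rbl2 had 274, and 4 in starvation replicate 2, where Rbl2 had 936. It had 0 to 16 counts in reduced KSOM and 0 to 20 in E4.5. A share of Rbl2 reads may come from either gene.

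**Figure D3:**
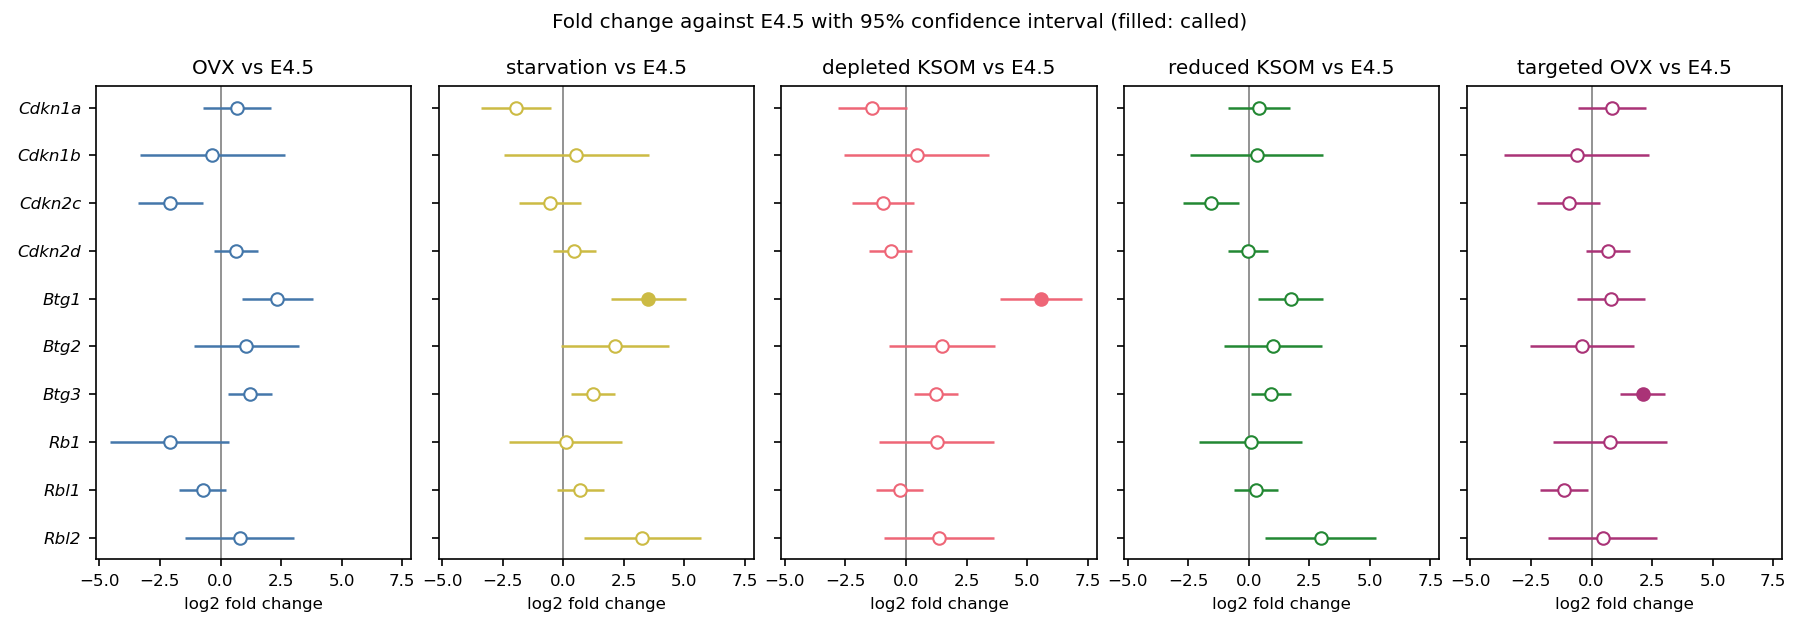
Log2 fold change against E4.5 of each member in the 5 groups of day 5.5, 1 panel a group, with 95% confidence intervals from the edgeR fit and filled points for those that passed. Filled points are Btg1 in depleted KSOM (5.57) and starvation (3.51) and Btg3 in targeted OVX (2.12), and the intervals of Cdkn1b, Rb1 and Rbl2 are the widest.

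Of 20 E2F target genes of DNA replication and mitosis, 8 fell in depleted KSOM against E4.5, 12 did not pass and none rose. All 20 log2 fold changes were negative, with a median of −1.64 beside −0.09 for all genes tested. Mcm5, of the replicative helicase, averaged 14.7 CPM in depleted KSOM and 137 CPM in E4.5 and fell 9.31-fold (log2 fold change −3.22 ± 0.46, adjusted p = 0.00311). Cdc6, which loads that helicase, averaged 1.94 CPM in depleted KSOM and 31.0 CPM in E4.5 (−4.00 ± 0.65, adjusted p = 0.00571), and Tk1, thymidine kinase, 17.6 CPM in depleted KSOM and 189 CPM in E4.5 (−3.42 ± 0.62, adjusted p = 0.00903). These 3 passed in all 23 alternatives. Mcm7, another helicase subunit, fell by 2.02 (adjusted p = 0.00801), but not without E4.5 replicate 1 (−1.73, adjusted p = 0.0778), depleted KSOM replicate 1 (−1.99, 0.0736) or replicate 2 (−2.05, 0.0622). Without single libraries the count of targets that fell ran from 3, without depleted KSOM replicate 2, through 5 without depleted KSOM replicate 1 and 4 without E4.5 replicate 1, to 10. Epiblast markers summed to 116 and 189 CPM in depleted KSOM and 374 and 414 CPM in E4.5, and primitive endoderm markers to 1115 and 1342 CPM in depleted KSOM and 1116 and 1159 CPM in E4.5, with 1 of the 6 higher and 1 lower past the threshold. The part of these cell types in the E2F target levels was not tested.

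In the other groups the 20 E2F targets had median log2 fold changes against E4.5 of −1.35 in OVX, −0.97 in starvation, −0.56 in reduced KSOM and −1.05 in targeted OVX, and 1, 2, 0 and 2 of them fell. Mcm7 fell in OVX (−1.81, adjusted p = 0.0243), starvation (−1.90, adjusted p = 0.0189) and targeted OVX (−1.74, adjusted p = 0.0250), and Mcm3, a further helicase subunit, in starvation (−2.05, adjusted p = 0.0436) and targeted OVX (−2.01, adjusted p = 0.0426). Each of these 5 calls was lost without E4.5 replicate 1, where Mcm7 was −1.52 (adjusted p = 0.188) in OVX, −1.61 (0.178) in starvation and −1.46 (0.175) in targeted OVX, and Mcm3 was −2.17 (0.133) in starvation and −2.14 (0.0933) in targeted OVX. Other single libraries also ended them, and Mcm7 passed in 16, 20 and 18 and Mcm3 in 15 and 14 of 23 alternatives in the order just given. In reduced KSOM 5 targets had an unadjusted p under 0.05 (15.2% of all genes), DESeq2 called 2 lower and limma on FPKM 7 lower (8.16% and 10.3% of all genes in either direction). Epiblast sums were 83.7 and 160 CPM in OVX, 226 and 422 CPM in starvation, 108 to 167 CPM in reduced KSOM and 99.3 and 195 CPM in targeted OVX. Primitive endoderm sums were 261 and 680 CPM in OVX, 819 and 928 CPM in starvation, 524 to 594 CPM in reduced KSOM and 215 and 304 CPM in targeted OVX, all below both E4.5 libraries. Of the 6 primitive endoderm markers 2 fell in OVX, 1 in starvation and none in the other two. The part of either cell type in the E2F target levels was not tested here.

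Of the 9 tested G1 cyclins and CDKs, 2 fell in depleted KSOM against E4.5 and none passed in the other 4 groups. Ccnd3, a D-type cyclin that activates CDK4 and CDK6, averaged 22.3 CPM in depleted KSOM and 135 CPM in E4.5 (6.04-fold lower, adjusted p = 0.0255). Ccne1, a partner of CDK2, averaged 5.96 CPM in depleted KSOM and 30.2 CPM in E4.5 (5.06-fold lower, adjusted p = 0.0296). Neither passed without depleted KSOM replicate 1 (adjusted p = 0.124 for Ccnd3 and 0.126 for Ccne1), depleted KSOM replicate 2 (0.103 and 0.190) or E4.5 replicate 1 (0.0589 and 0.217), nor Ccne1 without E4.5 replicate 2 (0.0501). Of 15 E2F and DREAM complex genes, Tfdp2, a DNA-binding partner of E2F proteins, rose in starvation (1.56, adjusted p = 0.0493) and depleted KSOM (1.39, adjusted p = 0.0464), but it passed in only 4 and 6 of 23 alternatives, and leaving out almost any library ended the call.

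**Figure D4:**
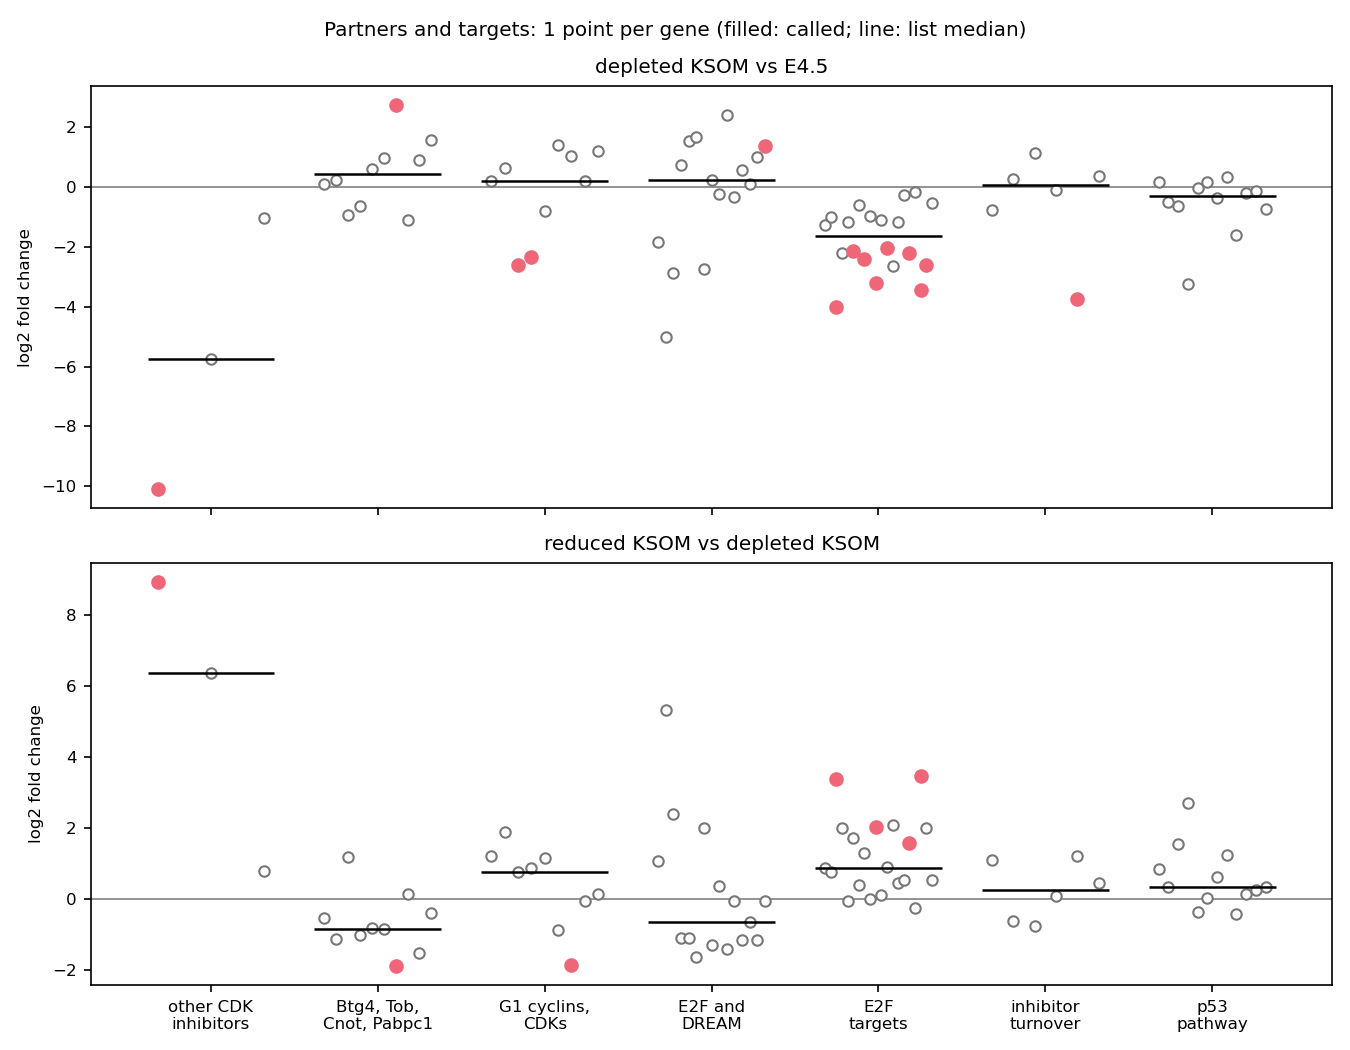
Log2 fold changes of each gene of 7 pathway lists, in depleted KSOM against E4.5 and in reduced KSOM against depleted KSOM, with filled points for genes that passed and a line at the list's median. The 20 E2F targets lie below 0 in the first comparison (median −1.64, with 8 that passed) and mostly above 0 in the second (median 0.88, with 4 that passed).

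The p53 pathway, which drives Cdkn1a and Btg2 in other settings, was tested with 12 genes. None passed against E4.5 in OVX, starvation, depleted KSOM or reduced KSOM (1, 3, 0 and 2 at an unadjusted p under 0.05, with 1, 3, 0 and 1 called by DESeq2 and 1, 0, 0 and 1 by limma on FPKM). Of all genes, DESeq2 called 9.25% in OVX, 10.5% in starvation, 15.1% in depleted KSOM and 8.16% in reduced KSOM, and limma 8.41%, 8.25%, 12.2% and 10.3%. In targeted OVX Bax, which permeabilises mitochondria in apoptosis, rose 3.33-fold, with 511 CPM in targeted OVX and 153 CPM in E4.5 (log2 fold change 1.74 ± 0.41, adjusted p = 0.0447). It passed in 12 of 23 alternatives, and not without targeted OVX replicate 1 (1.81, adjusted p = 0.0529), targeted OVX replicate 2 (1.65, 0.124) or E4.5 replicate 2 (1.26, 0.339), nor without depleted KSOM replicate 1 or any reduced KSOM replicate, at 1.73 to 1.74 with adjusted p of 0.0502 to 0.0765. With library totals as the scaling it was 1.003 (adjusted p = 0.162). All 12 log2 fold changes were positive in targeted OVX against OVX, with a median of 1.07 beside −0.09 for all genes, but none passed (3 at an unadjusted p under 0.05, 2 called by DESeq2 and 0 by limma, beside 10.9%, 4.1% and 0.243% of all genes).

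Between the induced groups, Btg1 was the member that separated the 2 culture media. It averaged 59.6 ± 12.6 CPM in reduced KSOM (SD, n = 3) and 860.1 ± 218 CPM in depleted KSOM (SD, n = 2), and fell 14.4-fold (log2 fold change −3.85 ± 0.61, interval −5.18 to −2.52, adjusted p = 0.00907). The call was lost without reduced KSOM replicate 1 (−3.72, adjusted p = 0.0517). It was also lost with a term for the 4 libraries that hold muscle transcripts (−4.52, adjusted p = 0.347). Those include all 3 of reduced KSOM, so the term is estimated only from the 2 OVX libraries. It therefore cannot tell muscle transcripts from the medium, and this limit holds for each use of the term between the media below. Cdkn1a was 3.52-fold higher in reduced than in depleted KSOM (1.82 ± 0.63, adjusted p = 0.110) and did not pass, although 8 of 23 alternatives called it. Cnot8 fell as well in reduced against depleted KSOM (−1.88 ± 0.32, adjusted p = 0.0109), though not without depleted KSOM replicate 1 (−1.23, adjusted p = 0.162), reduced KSOM replicate 1 (−1.90, 0.0533) or replicate 3 (−1.88, 0.0546), nor with the term for muscle-bearing libraries (−1.54, 0.558). Muscle, neutrophil and macrophage markers were high in reduced KSOM and their part in these differences was not tested.

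Of the 20 E2F targets, 4 rose in reduced against depleted KSOM, 16 did not pass and none fell, with a median log2 fold change of 0.88 beside 0.29 for all genes tested. The 4 were Tk1 (3.46, adjusted p = 0.0120), Cdc6 (3.39, adjusted p = 0.0139), Mcm5 (2.03, adjusted p = 0.0210) and Rrm1, a subunit of ribonucleotide reductase (1.57, adjusted p = 0.0363). Tk1 averaged 194 CPM in reduced KSOM and 17.6 CPM in depleted KSOM. No target passed without depleted KSOM replicate 1, where Tk1 was 3.36 (adjusted p = 0.0701), Cdc6 2.96 (0.107) and Mcm5 1.70 (0.180). With the term for muscle-bearing libraries none passed either, between 1 and 2 passed without depleted KSOM replicate 2 or any reduced KSOM replicate, and between 7 and 9 without any OVX, starvation or targeted OVX replicate. Cdk2, the kinase partner of cyclin E, fell in reduced against depleted KSOM, with 23.8 CPM in reduced KSOM and 85.9 CPM in depleted KSOM (−1.85 ± 0.41, adjusted p = 0.0264), a call that was lost without any 1 of the 5 libraries compared, at −1.76 to −1.92 with adjusted p of 0.0836 to 0.132. Cdkn1c, absent from depleted KSOM, averaged 1.02 CPM in reduced KSOM, at least 26.4-fold higher (adjusted p = 0.0421), and that call too was lost without any 1 of them (adjusted p = 0.0802 to 0.195).

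In the comparisons with OVX, where no member passed, DESeq2 called 4 members in depleted KSOM (9.21% of all genes), 2 in starvation (7.64%), 0 in reduced KSOM (3.31%) and 0 in targeted OVX (4.1%). There limma on FPKM called 1 in depleted KSOM (1.35%), 0 in starvation (0.968%), 0 in reduced KSOM (0.647%) and 0 in targeted OVX (0.243%). Btg1 was 9.44-fold higher in depleted KSOM than in OVX (3.24 ± 0.70, adjusted p = 0.0597), and 11 of 23 alternatives called it. It was 2.91-fold lower in targeted OVX than in OVX (−1.54 ± 0.66, adjusted p = 0.427), with 3.61 and 5.28 FPKM in targeted OVX, against 13.06 and 13.73 FPKM in OVX, and no overlap. Cdkn1a was 6.09-fold lower in starvation than in OVX (−2.61 ± 0.68, adjusted p = 0.112) and 4.18-fold lower in depleted KSOM than in OVX (−2.06 ± 0.67, adjusted p = 0.156). Cdkn2d was 2.43-fold lower in depleted KSOM than in OVX (−1.28 ± 0.42, adjusted p = 0.159). None of these passed.

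Likeness of pattern was described with Pearson's r of log2 CPM over the 13 libraries, against 4937 genes that averaged at least 4 on that scale and are not predicted models. Btg1 was most like Mkln1, muskelin (r = 0.966, rho = 0.852). Mkln1 averaged 201 CPM in depleted KSOM, 87.2 CPM in starvation and 51.9 CPM in OVX. Its mean was 50.2 CPM in reduced KSOM, 36.9 CPM in targeted OVX and 28.3 CPM in E4.5. That is the order of the Btg1 means in CPM, with OVX and reduced KSOM close together. On the FPKM scale the order differed, with 0.73 and 1.18 FPKM of Mkln1 in targeted OVX and 0.94 and 1.47 FPKM in E4.5. Btg3 was most like Gabpb1 (r = 0.937), Rbl2 like Zfp280d (0.945), Rbl1 like Odf2 (0.926), Cdkn1a like Timm10 (0.897), Btg2 like Ggta1 (0.896), Cdkn2c like Tmpo (0.876), Cdkn2d like Cct6b (0.845), Rb1 like Pdlim5 (0.828) and Cdkn1b like Dcaf7 (0.784). Each is the highest of 4937 values over libraries that share depth, scaling and group, so each is a description of these libraries. Among the members themselves the highest were 0.669 between Rbl1 and Rbl2, 0.613 between Btg1 and Btg2 and 0.611 between Cdkn2c and Rb1.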

How the data were processed

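Whole blastocysts were sequenced after full-length cDNA amplification with SMART-Seq v4, per the labels' protocols, which keeps neither strand nor molecular identifiers. The table deposited by the authors holds an estimated count, in whole numbers, for each gene and library, and FPKM that the authors computed. Per the submitters' processing notes, cutadapt 1.9, HISAT2 2.0.4, StringTie 1.3.4d and GRCm38 were used, while the annotation and the counting tool are not given in the sources used here. Counts kept by filterByExpr and scaled by TMM were fitted with edgeR 4.0.16 quasi-likelihood tests in 1 model that gave each of the 6 groups its own mean over the 13 libraries and left 7 residual degrees of freedom, with Benjamini-Hochberg adjustment over all genes tested and a threshold of 0.05. A gene rose or fell where it passed. Standard errors are the log2 fold change divided by the root of F. Level order and overlap of groups are on the FPKM scale.

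Named are all 10 members, up to 4 genes that passed per pathway list and comparison, by adjusted p, and the gene most alike in pattern. A few others were named after their values were seen (Cnot7, Cdkn2a, Cdkn2b). The members and lists were chosen with earlier results of these data known. Alternatives were other scalings, filters and tools (DESeq2 1.42.0, limma 3.58.1 on log2 of FPKM plus 1), a length offset, a term for libraries with muscle transcripts, a fit of only the groups compared, a block for the replicate number, and fits without each library in turn. Replicate numbers did not pair the samples. Pairs of replicates differed by more than sampling noise of counts. That cannot tell separate samples from technical repeats, and each library was counted as 1 sample. The test was tested on simulated data. R 4.3.3, Python 3.11.15 and matplotlib 3.10.9 were used. Intervals cover the spread between libraries, and counts of 0 are bounded by 3 counts per library. Some single-gene results of the table are not analysed here.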

Additional observations from a re-analysis of the deposited data

How the results depend on the processing

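Of 2487 values of the 10 members over 110 results and 23 alternatives, 2372 kept their side of the threshold, 100 came under it and 13 rose above it. A further 2 changed sign and passed in the alternative. Sign changes of values that passed in neither fit were not counted apart. Cdkn1a in OVX over E4.5, for example, ran from −0.67 to 1.65 without single libraries. The test of any difference has no direction. Both of these counted sign changes were Btg2 without starvation replicate 2, at −2.60 against E4.5 and −3.68 against OVX. Leaving out replicate 1 gave 3.06 and 2.04. Btg1 in depleted KSOM over E4.5 passed in every alternative, with adjusted p of at most 0.0130. The number of members that passed depended on the setting, and the cause was not tested. Against E4.5, DESeq2 called 2 in depleted KSOM, 3 in reduced KSOM, 4 in starvation and 2 in OVX. It called 8.16% to 15.1% of all genes in these groups. Without a filter on low counts 3, 1, 3 and 1 passed in those groups, and with a minimum mean CPM of 5, 1 in OVX. In a fit of only the groups compared 3 passed in depleted KSOM, 3 in reduced KSOM, 0 in starvation and 0 in targeted OVX. By limma 1 passed in OVX, 0 in starvation and 1 in reduced KSOM, and with library totals 0 in targeted OVX. Over the alternatives of scaling, filter, tool and model, all genes that passed ran from 980 to 3290 in depleted KSOM. In reduced KSOM they ran from 2 to 2462 and in starvation from 0 to 2299. OVX gave 0 to 2017 and targeted OVX 0 to 2571. Against OVX, no filter gave 1 in targeted OVX, 1 in starvation and 2 in depleted KSOM, DESeq2 2 in starvation and 4 in depleted KSOM, and library totals, a minimum mean CPM of 5 and limma 1 each in depleted KSOM. For reduced against depleted KSOM no filter, a minimum mean CPM of 5, only the groups compared and DESeq2 gave 2 each, and the term for muscle transcripts 0. In the test of any difference among groups median-of-ratios scaling and the length offset gave 3, and library totals, the muscle term and limma 2. No filter gave 5, a minimum mean CPM of 5 gave 4, and DESeq2 7. Over all genes these alternatives gave 1625 to 6569 there and 0 to 4455 between the media. Against OVX they gave 0 to 2008 in depleted KSOM, 0 to 1667 in starvation and 0 to 894 in targeted OVX. The counts over all genes also moved without single libraries, so none of these counts is a result about the members.

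Without 1 library, the number of members that passed moved in some comparisons, and the number of all genes that passed moved in each. A group of 2 is then left with 1 library, so these counts are not given. They are not a result about the members.

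Replicate numbers shared by the groups did not pair the samples: the correlation of deviations over 15 pairs of groups ran from −0.0427 to 0.0726, with 0 above 0.1. With the replicate number as a block, the members that passed against E4.5 were 1 in depleted KSOM, 0 in reduced KSOM, 1 in starvation, 0 in OVX and 1 in targeted OVX, none against OVX, 1 between the media and 1 in the test of any difference, as without it. Among the pathway genes, the block took Skp2 in reduced KSOM (−2.66, adjusted p = 0.137), Tfdp2 in starvation and depleted KSOM (0.1003 and 0.0944), Mcm3 in starvation and targeted OVX (0.0561 and 0.0543), Cnot8 in depleted KSOM against OVX (0.0637), and Cdk2 and Cdkn1c between the media (0.0715 and 0.0831) above the threshold. The fewest counts in a library were 12 for Cdkn1b, 8 for Rb1 and 7 for Rbl2, and counting error was not separated from the spread between libraries.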
